A study of Mus musculus with 3 samples.

Results

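Proteasome subunit genes, constitutive and immune, were followed in stimulated mouse macrophages. The set was a list of 41 gene symbols: the 7 alpha subunits, 4 structural beta subunits, 3 constitutive and 3 immune catalytic beta subunits, 6 ATPases and 3 non-ATPase subunits of the base, 8 lid subunits, 3 base assembly chaperones and 4 activators. Each symbol was found through the gene names in the transcript tables, and all 41 of 41 matched 1 entry among 55536 gene entries.

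Polyadenylated RNA came from bone-marrow-derived macrophages of the C57BL/6J strain that had received 100 ng/mL of an agonist for 480 min. The labels disagree on the agonist: lipid A, the membrane anchor of bacterial lipopolysaccharide, stands in the sample descriptions, but lipoprotein A stands in the treatment fields. The 3 libraries are biological replicates from separate biosamples under 1 donor label, with sex and age given as not collected, and they form 1 group. No unstimulated cells were analysed here, so all values are levels after stimulation and none is a change from rest. Whether the replicates came from separate animals is not stated, so the spread between them may in part be technical.

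The proteasome degrades proteins that carry ubiquitin chains. Its core is a barrel of stacked alpha and beta rings; the alpha rings gate the entrance, and beta1, beta2 and beta5 cut the chain with an N-terminal threonine that is exposed when a propeptide is removed. A cap built of a base and a lid binds ubiquitin, removes it, and unfolds the substrate with a ring of ATPases. In cells exposed to interferon or microbial products, newly built cores can take up the immune subunits beta1i (Psmb9), beta2i (Psmb10) and beta5i (Psmb8) in place of beta1 (Psmb6), beta2 (Psmb7) and beta5 (Psmb5), which alters the peptides made for MHC class I. PA28, built of Psme1 and Psme2, is an activator ring that opens the core without using ATP or ubiquitin.

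The 6 catalytic genes are compared below, so the coding sequence from the active-site threonine on is shown for each, because reads can be assigned to one of a pair only where the letters differ. The capitals mark the codon of that threonine, found by translation as the threonine after the glycine that ends the propeptide. Sequences are 60 bases of the leading transcript (the one that held the largest percent of its gene), from GENCODE M21 on mm10; the ranges of Psmb10, Psmb7 and Psmb5 span an intron that is not printed.

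Psmb9, chr17:34185738-34185797, minus strand: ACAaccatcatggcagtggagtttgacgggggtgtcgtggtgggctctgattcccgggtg
Psmb6, chr11:70525885-70525944, plus strand: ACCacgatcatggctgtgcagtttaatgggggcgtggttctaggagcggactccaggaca
Psmb10, chr8:105937559-105937705, minus strand: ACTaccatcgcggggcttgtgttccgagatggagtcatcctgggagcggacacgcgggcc
Psmb7, chr2:38642243-38643384, minus strand: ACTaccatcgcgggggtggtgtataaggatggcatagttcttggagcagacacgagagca
Psmb8, chr17:34199302-34199361, plus strand: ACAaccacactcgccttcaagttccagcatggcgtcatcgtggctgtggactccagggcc
Psmb5, chr14:54616783-54617814, minus strand: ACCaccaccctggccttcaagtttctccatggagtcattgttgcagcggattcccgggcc

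Of these 60 bases, Psmb9 and Psmb6 shared 41, Psmb10 and Psmb7 shared 43, and Psmb8 and Psmb5 shared 47. Over the aligned coding sequences the identity was 66.2% for Psmb9 and Psmb6, 63.3% for Psmb10 and Psmb7 and 69.0% for Psmb8 and Psmb5. The longest run of identical bases within a pair was 11, 15 and 18 bases in the same order.

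Levels are in TPM, a unit that corrects for transcript length and library total, so genes can be compared within a library. Totals of expected counts were 26589042 for replicate 1, 34344922 for replicate 2 and 48356527 for replicate 3, and counts for single subunits lay between 338 and 27683. The deposited credibility interval of Psmb5, the lowest catalytic gene, ran from 70.0 to 79.8 TPM in replicate 1, around a posterior mean of 74.91 TPM. The TPM used here can lie outside such an interval. In replicate 1 it was 79.96 for Psmb5, and 920.84 for Psmb8 against an interval of 843 to 877. All 41 subunits reached at least 1 TPM in all 3 libraries, which 17.9% of all gene entries did. Together they made up 0.829% of all TPM. A mean of at least 100 TPM was reached by 19 of the 41, against 13.3% of detected genes. Of 7 macrophage markers, 7 were detected, while T cell, B cell, NK cell, dendritic cell and fibroblast markers had 0 of their genes detected in all 3 libraries. The dendritic cell marker Clec9a had 0.97, 3.95 and 4.39 TPM, and 2 of 7 neutrophil markers were detected in all 3 libraries.

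**Figure D1:**
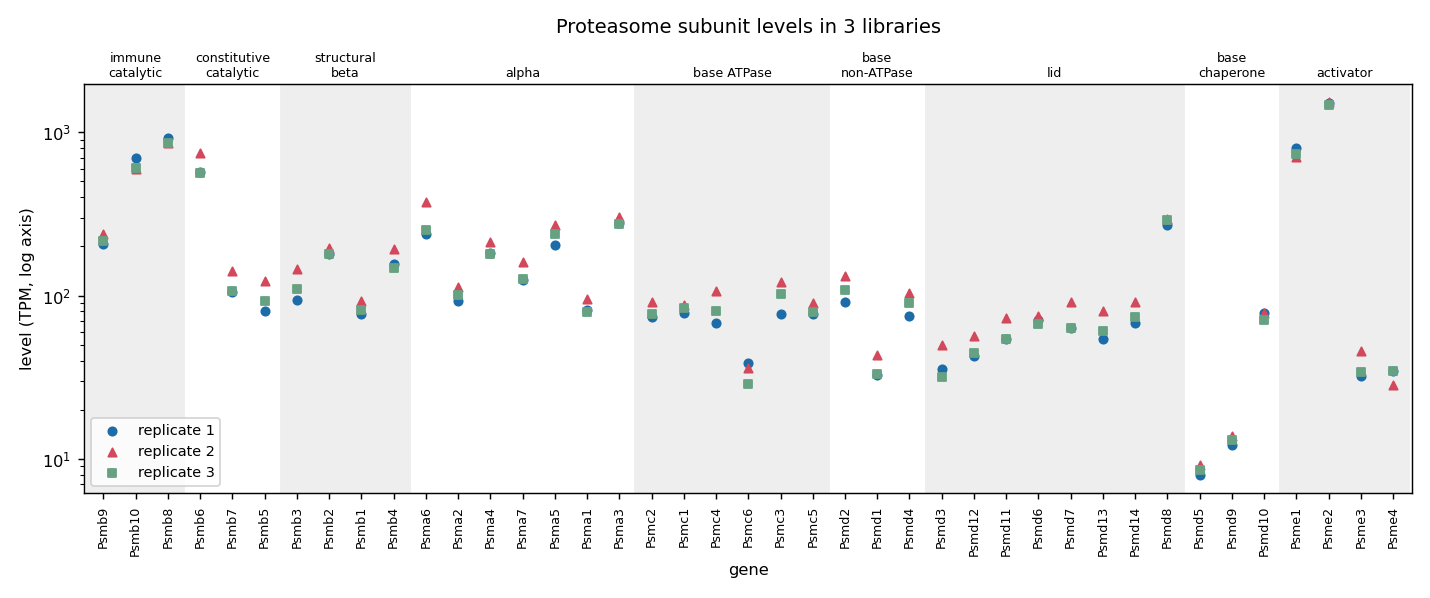
Level of each of the 41 subunit genes in TPM on a log axis, grouped by role, with 1 point per library. The means run from 8.587 TPM for Psmd5 to 1498 TPM for Psme2, and the triangles of replicate 2 lie highest for 35 of the 41 genes.

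The catalytic positions did not share one pattern: the immune gene was the more abundant at beta5 and beta2, and the constitutive gene was the more abundant at beta1. At beta5, which cuts after hydrophobic residues, Psmb8 (chromosome 17, 34197721 to 34201454, plus strand) had 921, 855 and 863 TPM in replicates 1, 2 and 3. Psmb5 (chromosome 14, 54614119 to 54618022, minus strand) had 79.96, 123 and 92.7 TPM. Every library held far more Psmb8 than Psmb5, and the values did not overlap. The difference, log2(TPM + 0.1) of Psmb8 minus that of Psmb5, was 3.18 ± 0.37 (SD, n = 3), or 9.06-fold, and it was smallest in replicate 2, where Psmb5 was highest.

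At beta2, which cuts after basic residues, Psmb10 (chromosome 8, 105935735 to 105938444, minus strand) had 693, 599 and 602 TPM. Psmb7 (chromosome 2, 38588036 to 38644087, minus strand) had 106, 142 and 107 TPM. Psmb10 was the higher of the pair in each library, by 2.42 ± 0.32 on the log2 scale (SD, n = 3), or 5.37-fold. Nek6, a kinase gene on the opposite strand that overlaps exons of Psmb7, averaged 15.3 TPM, and whether the reads were counted by strand is not stated.

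At beta1, which cuts after acidic residues in its constitutive form, the order was turned round. Psmb9 (chromosome 17, 34181987 to 34187764, minus strand) had 208, 238 and 216 TPM. Psmb6 (chromosome 11, 70525367 to 70527858, plus strand) had 568, 751 and 561 TPM. Psmb9 was lower than Psmb6 in 3 of 3 libraries, with a log2 difference of -1.49 ± 0.15 (SD, n = 3), a ratio of 0.355. Psmb9 overlaps exons of Tap1, the peptide transporter gene on the opposite strand, over 212 bases of its leading transcript, and Tap1 averaged 503 TPM. If reads were not counted by strand, reads from that stretch cannot be told apart.

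**Figure D2:**
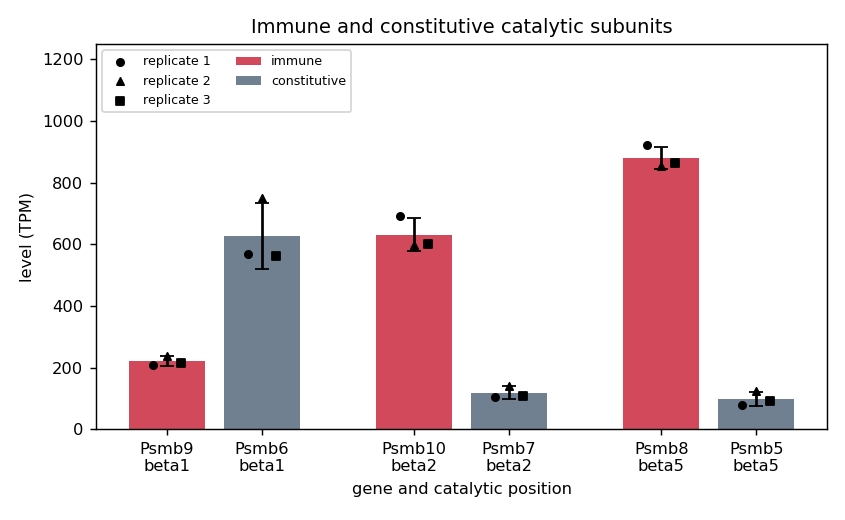
Mean level in TPM of the immune and the constitutive subunit at each catalytic position, with bars for the mean, error bars for the SD over 3 libraries and 1 symbol per library. The immune subunit is the lower one at beta1 (220.7 against 626.7 TPM) and the higher one at beta2 (631.5 against 118.4 TPM) and beta5 (879.7 against 98.57 TPM).

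All 9 pairs of genes that were compared met the rule for a difference larger than the spread, which asked for the same sign in 3 of 3 libraries and a mean above 2 SD. Genes of unlike level meet this rule easily, and the share of other gene pairs that would meet it was not counted. Meeting it therefore only describes these pairs. The exact two-sided sign-flip permutation test gave p = 0.25 for each of the 9 pairs, the smallest value 3 libraries allow, so no pair could reach the 0.05 threshold. After adjustment over the 9 pairs by the Benjamini-Hochberg method p was again 0.25 in this exact test.

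Expressed as a share of the position, Psmb9 made up 26.8%, 24.1% and 27.8% of the sum of Psmb9 and Psmb6 in replicates 1, 2 and 3. Psmb10 made up 86.8%, 80.8% and 84.9% of its sum with Psmb7, and Psmb8 made up 92.0%, 87.4% and 90.3% of its sum with Psmb5. The mean shares were 26.2% ± 1.92 at beta1, 84.2% ± 3.03 at beta2 and 89.9% ± 2.32 at beta5 (SD, n = 3). Replicate 2 had the lowest immune share at each position. These are shares of RNA, and no protein was measured.

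Each position occurs equally often in a finished core, so the sums can be set beside each other. Immune plus constitutive RNA came to 847 ± 123 TPM at beta1, 749.8 ± 45.3 TPM at beta2 and 978 ± 22.5 TPM at beta5 (SD, n = 3). The 4 structural beta subunits averaged between 83.70 TPM for Psmb1 and 185.2 TPM for Psmb2. Each catalytic sum was thus above every structural beta gene. These sums include transcripts not annotated as protein coding. Counting coding transcripts only, Psmb9 averaged 189.0 and Psmb6 589.3 TPM, and Psmb10 423.5 and Psmb7 118.1 TPM. Psmb8 then averaged 655.4 and Psmb5 98.58 TPM, so beta5 no longer stood above beta1.

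The immune genes also differed from one another. Psmb8 exceeded Psmb9 by 2.00 ± 0.15 on the log2 scale and Psmb10 by 0.48 ± 0.06, and the difference of Psmb9 minus Psmb10 was -1.52 ± 0.20 (SD, n = 3 each). Psmb8 and Psmb9 lie close together in the MHC class II region, with Tap1 between them, and their TPM levels were 3.99-fold apart, or 2.16-fold by the count-based measure described next.

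How much of these differences rests on the transcript model was examined with alternatives chosen after the data were seen. The leading transcript of Psmb8 was Psmb8-203, a model of 840 bases whose 3′ end the annotation marks as not found, and it held 69.8%, 70.8% and 74.1% of the gene's TPM. The full coding transcript, Psmb8-201, is 1628 bases long and held 2.63%, 3.58% and 2.69%. A shorter model gives more TPM for the same count. With expected counts divided by the effective length of the principal coding transcript of each gene, Psmb8 exceeded Psmb5 by 2.22 ± 0.38 (SD, n = 3), or 4.66-fold, and the share at beta5 was 82.1% ± 3.90. On that measure Psmb8 and Psmb10 were no longer apart, with a difference of -0.08 ± 0.08 (SD, n = 3), whereas the signs of Psmb10 against Psmb7 (2.01 ± 0.29) and Psmb9 against Psmb6 (-1.56 ± 0.18) stayed as before.

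**Figure D3:**
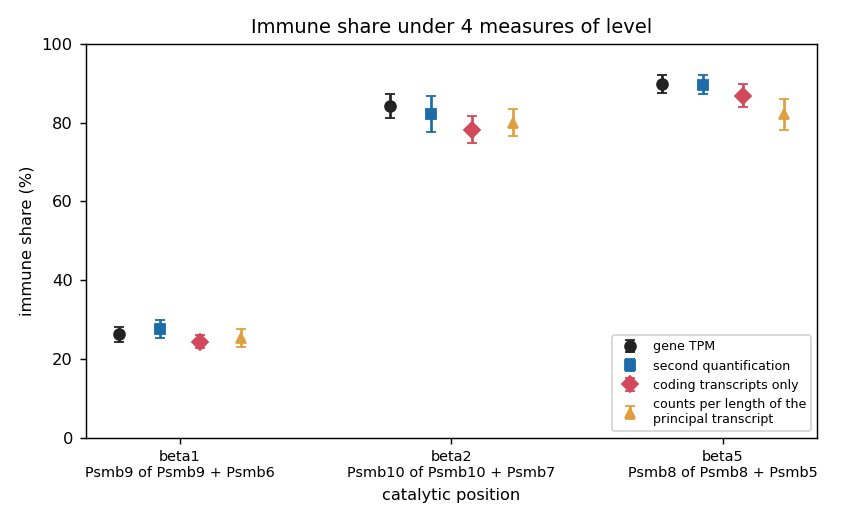
Immune share of each catalytic position in percent, as the mean over 3 libraries with error bars for the SD, under 4 measures of level. The beta1 share lies between 24.4% and 27.6%, the beta2 share between 78.2% and 84.2%, and the beta5 share between 82.1% and 89.9%.

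Among the activators, PA28alpha and PA28beta were the abundant ones. Psme2 (PA28beta) had 1501, 1526 and 1466 TPM and was the most abundant of the 41 genes in every library. Psme1 (PA28alpha) had 798, 708 and 738 TPM. Psme1 was at 0.499 times the level of Psme2, with log2 differences of -0.91, -1.11 and -0.99 in the 3 libraries. The genes lie near each other on chromosome 14, at 55578123 to 55581529 and 55587441 to 55591113. Psme2b, a near-identical gene (99.4% identity over 794 bases), averaged 58.9 TPM, so a small part of the reads of Psme2 could be split with it.

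The other activators were far lower. Psme3, the nuclear PA28gamma, had 32.1, 45.8 and 34.3 TPM, and Psme4, the large nuclear activator PA200, had 34.6, 28.4 and 34.8 TPM. Against Psme1 the log2 differences were -4.34 ± 0.35 for Psme3 and -4.52 ± 0.12 for Psme4 (SD, n = 3 each). Psme3 was highest in replicate 2. Psme4 was lowest there in the gene tables, but lowest in replicate 1 in the second quantification, with 27.2, 31.4 and 32.0 TPM.

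Among the shared parts of the core, the alpha ring genes averaged from 85.61 TPM for Psma1 to 287.5 TPM for Psma6, a 3.36-fold range. Psma6 (alpha1) had 239.9, 372 and 250.5 TPM, with replicate 2 standing above the other two. Psma3 (alpha7) averaged 284.3 ± 15.0 TPM, Psma5 (alpha5) 238.8 ± 33.8, Psma4 (alpha3) 191.7 ± 17.9, Psma7 (alpha4) 137.4 ± 20.2 and Psma2 (alpha2) 102.3 ± 10.7 (SD, n = 3 each). Of the structural beta genes, Psmb2 (beta4) averaged 185.2 ± 9.15 TPM, Psmb4 (beta7) 165.3 ± 24.5, Psmb3 (beta3) 116.4 ± 26.2 and Psmb1 (beta6) 83.70 ± 7.54 (SD, n = 3 each).

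The median structural beta gene lay below the median alpha gene by a log2 difference of -0.48 ± 0.13 (SD, n = 3). Counting only transcripts annotated as protein coding, likewise tried after seeing the data, the difference was -0.01 ± 0.07 and no longer apart. The median immune catalytic gene exceeded the median structural beta gene by 2.20 ± 0.34, while the median constitutive catalytic gene was below it by a log2 difference of -0.23 ± 0.03 (SD, n = 3 each). That last sign rests on the median: with the mean over members the difference was 0.56 ± 0.09. Psmb6, at 626.7 TPM, is one of its 3 constitutive genes.

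By their medians the ATPases and the lid lay below the alpha ring. The ATPase ring, which unfolds substrates, averaged 34.41 ± 5.11 TPM for Psmc6 (Rpt4), 80.91 ± 9.78 for Psmc2 (Rpt1), 81.94 ± 6.66 for Psmc5 (Rpt6), 83.68 ± 4.86 for Psmc1 (Rpt2), 85.31 ± 19.8 for Psmc4 (Rpt3) and 100.2 ± 22.1 for Psmc3 (Rpt5) (SD, n = 3 each). Apart from Psmc6, whose libraries had 38.7, 35.8 and 28.7 TPM, the ring genes were close together. The median ATPase was below the median alpha gene by a log2 difference of -1.22 ± 0.06 (SD, n = 3). Slc39a13, on the opposite strand, overlaps exons of Psmc3 and averaged 22.0 TPM.

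Of the other base subunits, Psmd2 (Rpn1), a docking site for ubiquitin-like domains, averaged 110.7 ± 20.5 TPM, and Psmd4 (Rpn10), a ubiquitin receptor, 89.32 ± 14.6 TPM. Psmd1 (Rpn2), a scaffold, was lower at 36.42 ± 5.96 TPM (SD, n = 3 each).

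In the lid, Psmd8 (Rpn12), which joins late in lid assembly, stood apart with 269, 293 and 291 TPM. Psmd14 (Rpn11), the enzyme that removes ubiquitin chains, had 68.0, 91.3 and 74.3 TPM. The other 6 lid genes were Psmd7 (Rpn8) at 72.73 ± 16.6 TPM, Psmd6 (Rpn7) at 71.23 ± 4.22, Psmd13 (Rpn9) at 65.10 ± 13.3, Psmd11 (Rpn6) at 60.33 ± 10.7, Psmd12 (Rpn5) at 47.88 ± 7.52 and Psmd3 (Rpn3) at 39.05 ± 9.50 (SD, n = 3 each). The lid spanned 7.28-fold, and without Psmd8 its genes lay within the span of the ATPases' lower and upper ends. The median lid gene was below the median alpha gene by a log2 difference of -1.54 ± 0.10 (SD, n = 3).

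The chaperones that assemble the base are not part of the finished particle. Psmd5 (S5b) had 8.03, 9.22 and 8.51 TPM and Psmd9 (p27) had 12.1, 13.8 and 13.0 TPM. Psmd10 (gankyrin) had 78.5, 78.1 and 71.3 TPM, within the range of the ATPases it helps to assemble. The median chaperone was below the median ATPase by a log2 difference of -2.65 ± 0.05, or -1.84 ± 0.10 with the mean over members in place of the median (SD, n = 3). Immune against constitutive catalytic genes, whose medians are Psmb10 and Psmb7, gave 1.37 ± 0.27 with the mean over members. All 7 comparisons between subcomplexes met the rule on sign and SD, and each had p = 0.25 in the exact permutation test. How often other sets of genes would meet that rule was not counted.

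Most subunits were highest in the same library. Replicate 2 held the highest TPM for 35 of 41 subunits, against 46.3% of detected genes. On counts scaled by the trimmed mean of M values (TMM), it was highest for 29 of 41, against 38.3%. The median deviation from the gene's own mean in replicates 1, 2 and 3 was -0.12, 0.19 and -0.06 on the log2 scale for the subunits, and -0.04, 0.05 and -0.02 for all detected genes. Of the 34 subunits that are neither immune catalytic nor activators, 32 were highest in replicate 2. In bulk RNA, more cells of a type and more RNA per cell cannot be told apart.

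The immune catalytic genes and PA28 were split. Psmb8, Psmb10 and Psme1 were highest in replicate 1, as 5 of the 41 subunits and 30.6% of detected genes were. Psmb9 and Psme2 were highest in replicate 2, and Psme4 alone of the 41 in replicate 3, against 23.2% of detected genes. In replicates 1, 2 and 3 the median deviation of the immune catalytic genes was 0.07, -0.04 and -0.03, against -0.15, 0.28 and -0.13 for the constitutive catalytic genes. In the second quantification, Psmb8 was highest in replicate 2, with 644, 729.9 and 652 TPM, and so was Psme1, with 628, 641 and 591 TPM. On TMM-scaled counts the order went the other way: 4 of the 5 genes Psmb8, Psmb9, Psmb10, Psme1 and Psme2 were highest in replicate 1, against 34.7% of detected genes. Psme2 was among them, and Psmb9 was level in replicates 1 and 2, with log2 deviations of 0.007 and 0.008. The difference between the immune and constitutive genes in this respect was not tested.

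Replicate 2 also differed in its markers. The 7 macrophage markers summed to 20589, 15995 and 17264 TPM in replicates 1, 2 and 3, though 2 of the 7 were highest in replicate 2. All 7 of 7 neutrophil markers were highest in replicate 2, against 46.3% of detected genes. Only 2 of these 7 were detected in all 3 libraries. The summed level of the neutrophil markers was 22.9, 420 and 21.4 TPM in replicates 1, 2 and 3. Mpo and Elane, granule enzyme genes that define immature neutrophils, were listed at 0 in replicates 1 and 3 and at 0.56 and 0.37 TPM in replicate 2. The part of these cells in the subunit levels was not tested. Without replicate 2 the log2 differences between immune and constitutive genes were 3.37 for Psmb8 minus Psmb5, 2.60 for Psmb10 minus Psmb7 and -1.41 for Psmb9 minus Psmb6, beside 3.18, 2.42 and -1.49 with it.

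**Figure D4:**
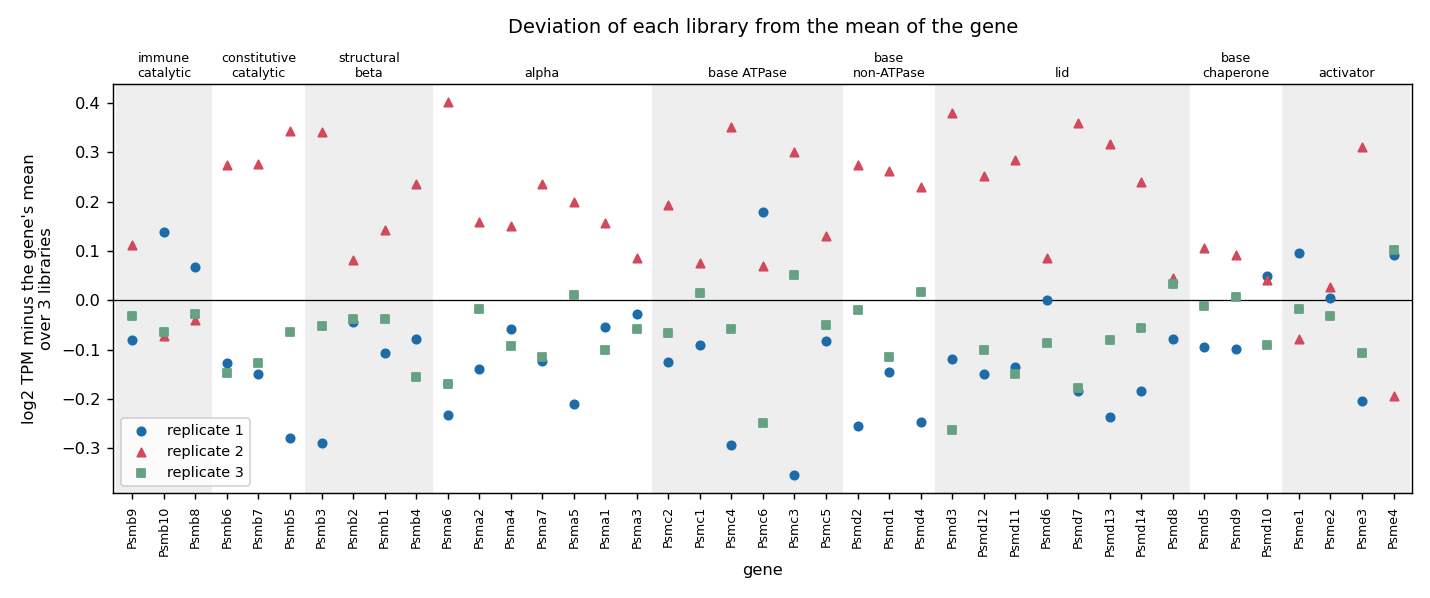
Deviation of each library from the gene's own mean, in log2 TPM, for the 41 subunits grouped by role, with 1 symbol per library. The triangles of replicate 2 lie above 0 for most genes outside the immune catalytic and PA28 genes, with a median of 0.19 over all members.

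Beyond counting error, 37 of 41 subunits differed between libraries at an adjusted p under 0.05 (chi-square test on TMM-scaled counts, Benjamini-Hochberg over 12404 genes), against 70.9% of all genes tested. The 70.9% includes genes with mean counts down to 10, whereas no subunit had a count below 338. When that minimum was raised from 10 to 100, 37 of 41 again passed, against a larger background of 80.8%. Without replicate 2, at the minimum of 10, 19 of 41 passed, against 42.7% of all genes tested. The 4 that did not pass the chi-square test on all 3 libraries, at the minimum of 10, were Psmb9 (adjusted p = 0.637), Psmb2 (0.384), Psma3 (0.102) and Psmd9 (0.0591). The sizes were modest: the median coefficient of variation was 14.1% for the subunits and 15.5% for all detected genes. The highest library exceeded the lowest by more than 1.5-fold in TPM for 6 of 41, against 33.0% of detected genes. These were Psma6, Psmb3, Psmb5, Psmc4, Psmc3 and Psmd3, each highest in replicate 2. On counts scaled by DESeq2 size factors 0 of 41 exceeded 1.5-fold, against 37.8% of genes tested.

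Most subunits were carried by 1 transcript. The leading transcript was the same in all 3 libraries for 41 of 41 subunits, and it held over 90% of the gene in 27. The second quantification named the same leading transcript in all libraries for 39, the exceptions being Psma3 and Psmd5. Among the catalytic genes, Psmb6-201 held 94.0%, Psmb7-201 99.8% and Psmb5-201 99.0% of their genes, whereas Psmb9-204 held 78.9%, Psmb10-201 67.4% and Psmb8-203 71.6%. Psmb8-205, labelled as retaining an intron, held 24.9%, 24.0% and 21.4% of Psmb8. Among the activators the leading transcript held between 89.4% (Psme2-208) and 94.7% (Psme3-201).

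The immune catalytic genes had smaller coding shares than their counterparts. Transcripts annotated as protein coding made up 85.6% of Psmb9, against 94.0% of Psmb6. They made up 67.4% of Psmb10, against 99.8% of Psmb7, and 74.5% of Psmb8, against 100% of Psmb5. In the second quantification these shares were 75.6% for Psmb9, 80.6% for Psmb10 and 71.8% for Psmb8. The mean for Psmb10 was lowered by replicate 1: its libraries had 62.6%, 89.0% and 90.2% there. The low coding share of Psmb10 in the gene-table quantification was thus largely not seen in replicates 2 and 3 of the second one. Counting coding transcripts only, the immune share was 24.4% ± 1.60 at beta1, 78.2% ± 3.47 at beta2 and 86.9% ± 2.83 at beta5 (SD, n = 3 each).

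**Figure D5:**
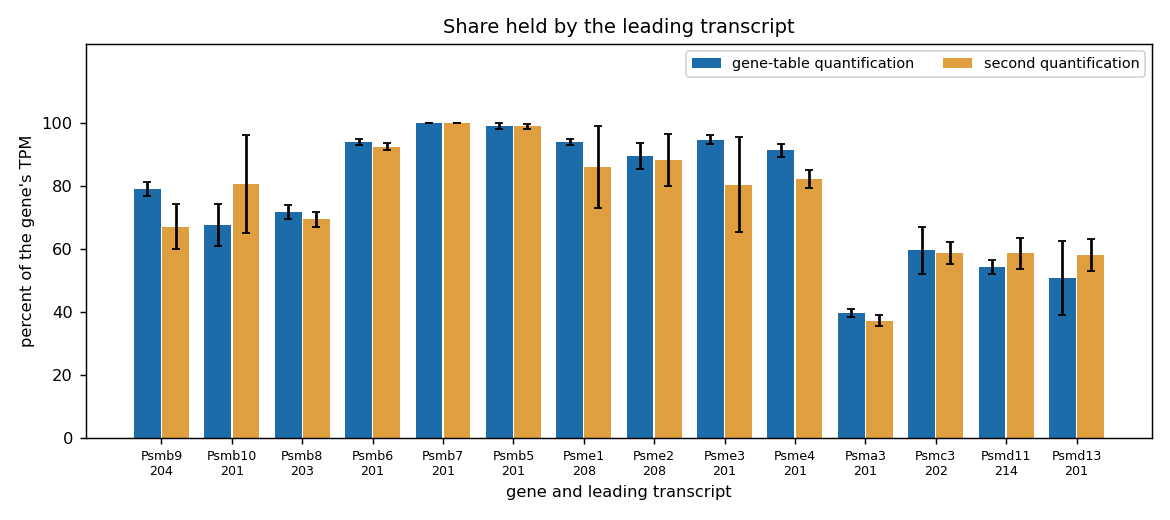
Percent of the gene's TPM held by the leading transcript, as the mean over 3 libraries with error bars for the SD, in the gene-table quantification and in the second one. The catalytic and activator genes and the 4 genes whose leading transcript held under 60% are shown, and Psma3-201 is the lowest at 39.7%.

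In 4 genes the leading transcript held under 60%. In Psma3 (chromosome 12, 70974621 to 70996347, plus strand) the leading transcript, Psma3-201, is annotated as a target of nonsense-mediated decay and held 41.1%, 38.9% and 39.0%. It lacks 5 bases (chr12:70983319-70983323, mm10) at the start of an exon that the full coding transcript Psma3-202 includes, shown here in capitals between the flanking coding bases.

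Psma3-202: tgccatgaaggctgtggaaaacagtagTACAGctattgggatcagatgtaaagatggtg
Psma3-201: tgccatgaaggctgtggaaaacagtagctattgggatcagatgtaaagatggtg

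Psma3-203, with a retained intron, held 34.3% ± 4.11, Psma3-204, a coding model that lacks 83 bases, held 20.3% ± 5.45, and Psma3-202 held 3.65% ± 0.632 (SD, n = 3 each). Coding transcripts made up 24.0% of Psma3, and 9.40% in the second quantification, which put Psma3-203 first. Gm13835, with a stretch of 661 bases identical to Psma3, averaged 11.2 TPM, so reads may be split there.

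Psmc3 divided between the coding transcripts Psmc3-202, with 68.0%, 55.4% and 54.9%, and Psmc3-210, with 25.5%, 42.6% and 41.9%. Psmd11-214 held 54.2% ± 2.38 and Psmd11-201 31.5% ± 1.92, both coding. Psmd13-201 held 64.4%, 44.0% and 43.8%, beside Psmd13-211, annotated for nonsense-mediated decay, with 26.0%, 30.4% and 35.8%. The leading share of Psmc3 was highest in replicate 1 in both quantifications. That of Psmd13 was highest in replicate 1 in the gene-table quantification, but in replicate 2 in the second one, with 55.9%, 63.8% and 54.3%.

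Psmd4, the ubiquitin receptor of the base, had 2 coding forms, Psmd4-201 of 1276 bases and Psmd4-202 of 1332 bases. Within the stretch that both span, Psmd4-201 has 9 bases (chr3:95033909-95033917, mm10, minus strand) that Psmd4-202 lacks, a whole number of codons. They are shown in capitals with the coding bases on either side. This gene was chosen after its values were seen.

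Psmd4-201: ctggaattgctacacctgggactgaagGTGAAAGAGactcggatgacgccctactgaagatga
Psmd4-202: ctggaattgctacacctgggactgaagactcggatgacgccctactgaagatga

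Psmd4-202, without the 9 bases, held 70.2%, 67.7% and 71.6% of the gene, and Psmd4-201, with them, held 25.6%, 30.2% and 22.2%. The form without the 9 bases led in every library, and the second quantification gave 70.3% and 25.8% in the mean.

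Promoter windows from RefSeq (assembly GRCm38.p6, from 250 bases before to 50 bases after the annotated start) matched 35 of the 41 genes; those not matched were Psmb2, Psmb1, Psmb7, Psmc3, Psmd3 and Psmd7. Both strands were searched for the letters of an interferon-stimulated response element, GAAANNGAAA, where interferon regulatory factors bind, and of a gamma-activated site, TTCNNNGAA, an element of interferon-gamma responses. The response element was found in 4 of 35 genes (Psmb3, Psmd4, Psmd9 and Psme1), and in 3.44% of 32851 windows of all genes. The activated site was found in 2 of 35 (Psmb8 and Psmd2), against 8.30% of all windows. A kappaB pattern, GGGNNNNNCC, was in 20 of 35, against 50.8% of all windows, an antioxidant response pattern, TGANNNNGC, was in 20 of 35, against 41.3%, and CCAAT was in 13 of 35, against 37.4%. The windows of Psmb8 and Psme1, the immune catalytic and PA28 genes with a match to either of the first 2 patterns, and of Psmb6, a constitutive catalytic gene with none, are shown with those matches in capitals.

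Psmb8 promoter, chr17:34197945-34198244, plus strand: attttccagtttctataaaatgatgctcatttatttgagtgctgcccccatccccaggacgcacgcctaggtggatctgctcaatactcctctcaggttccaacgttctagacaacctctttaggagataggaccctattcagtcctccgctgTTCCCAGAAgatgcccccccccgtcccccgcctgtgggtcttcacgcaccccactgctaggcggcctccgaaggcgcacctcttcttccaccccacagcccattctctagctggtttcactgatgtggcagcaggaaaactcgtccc
Psme1 promoter, chr14:55578244-55578543, plus strand: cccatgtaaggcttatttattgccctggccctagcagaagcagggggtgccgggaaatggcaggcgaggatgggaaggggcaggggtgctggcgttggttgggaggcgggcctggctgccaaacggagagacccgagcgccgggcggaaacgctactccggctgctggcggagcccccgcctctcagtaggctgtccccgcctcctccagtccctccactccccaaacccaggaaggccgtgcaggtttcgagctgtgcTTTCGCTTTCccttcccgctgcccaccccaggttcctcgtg
Psmb6 promoter, chr11:70525107-70525406, plus strand: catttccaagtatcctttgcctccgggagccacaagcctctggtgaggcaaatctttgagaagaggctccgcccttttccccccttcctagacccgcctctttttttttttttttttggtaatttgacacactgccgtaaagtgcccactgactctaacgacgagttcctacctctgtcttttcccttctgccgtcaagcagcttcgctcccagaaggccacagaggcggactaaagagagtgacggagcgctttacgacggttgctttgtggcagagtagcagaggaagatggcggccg

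The match in Psmb8 begins at -97 from the RefSeq start, and the match in Psme1 at 9 bases past it. The leading transcript of Psme1 starts at -134 from the RefSeq start, so the match in Psme1 lies downstream of both starts. The leading transcripts of Psmb8 and Psmb9 start at -474 and -434 relative to their RefSeq starts, outside these windows. The windows therefore do not cover the annotated start of those transcripts, and the match in Psmb8 lies downstream of its leading start. Which starts were used was not measured. A match is only a match of letters.

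Other genes of the pathway numbered 37. The testis subunit gene Psma8 averaged 0.557 TPM and the thymus subunit gene Psmb11 0.00333 TPM. The cap subunit Sem1 averaged 93.12 TPM, the ubiquitin receptor Adrm1 45.88 and the inhibitor Psmf1 19.84. Pomp, the chaperone that matures the beta ring, had 329.7, 412 and 476 TPM, against 2.05, 5.44 and 2.51 TPM for Psmg1, 4.30, 9.81 and 5.81 TPM for Psmg2, and means of 12.50 and 25.15 TPM for Psmg3 and Psmg4, the chaperones that pair alpha subunits. Of the 5 core chaperones, 5 differed between libraries in the chi-square test, against 70.9% of all genes tested, and 4 were highest in replicate 2, against 46.3% of detected genes.

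All 9 of 9 enzymes and shuttle factors that bind the cap were highest in replicate 2, in TPM (46.3% of detected genes) and on TMM-scaled counts (38.3%). They averaged from 5.600 TPM for Ubqln2 and 6.470 for Ube3c to 34.12 for Rad23b, 36.09 for Txnl1 and 38.01 for Ubqln1. The ubiquitin gene Ubb averaged 1373 TPM, Rps27a, which encodes ubiquitin fused to a ribosomal protein, 596.7 TPM, and the ubiquitin-activating enzyme Uba1 155.2 TPM.

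Of the transcription regulators, the interferon regulatory factor Irf1 had 507, 489 and 431 TPM, and Irf8 averaged 154.7 TPM. Nfe2l1, which drives subunit genes when proteasome activity falls short, averaged 60.32 TPM, and the lowest of the regulators were Ddi2 at 6.177 and Nfyb at 8.560 TPM. In the MHC region, Tap1 averaged 502.8 TPM and Tap2 216.6 TPM, beside 220.7 TPM for Psmb9 and 879.7 TPM for Psmb8.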

How the data were processed

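The 3 libraries of polyadenylated RNA were quantified by the authors on mm10 with GENCODE M21, per the readme deposited with each sample; no source used here gives the programs, versions or strand setting. As the file headers show, the deposited gene and transcript tables hold expected counts assigned by a model, TPM, a posterior mean TPM with a credibility interval (used as a signal of precision), and each transcript's percent of its gene. Another deposited quantification holds estimated counts and TPM per transcript, here summed per gene.

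Members and gene lists were chosen with earlier results of these data known. All 41 members were named; of the other pathway lists up to 3 highest and 2 lowest genes were, and some that meet this rule are not reported. One of the 38 listed pathway genes, Paaf1, was not analysed here. The 7 marker lists held genes of macrophages and of other cell types. Gene levels were compared within libraries as log2(TPM + 0.1) with an exact sign-flip test. Variation between libraries was tested on rounded expected counts by chi-square (2 degrees of freedom) wherever the mean count reached 10. The test was tried on simulated counts that held counting error only. That trial cannot tell how the test behaves with the spread between real replicates. Near-identical stretches in other genes were sought on both strands with blastn 2.17.0 at 95% identity over at least 100 bases. They were found for 14 members. Some are genes that overlap the member at its own place, such as Tap1 for Psmb9 and Nek6 for Psmb7. Software was R 4.3.3, edgeR 4.0.16, DESeq2 1.42.0, Python 3.11.15, scipy 1.17.1 and matplotlib 3.10.9.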

Additional observations from a re-analysis of the deposited data

How the results depend on the processing

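Of 26 results, 199 values under alternatives were computed, and 183 were classed as unchanged. For differences this meant the same direction and side of the rule, and for shares a move of less than the SD. For counts of genes it meant staying within 1.5-fold of the main count. Among the 16 gene and subcomplex differences, the second quantification, posterior mean TPM, pseudocounts of 1 and 0.01 and leaving out any library changed no sign and no call. Leaving out a library could not change a sign, because all 16 had the same sign in 3 of 3 libraries. Nor can leaving out 1 of 3 libraries move a mean share by its SD, so that outcome was fixed too. The count of 41 detected members could not change at a minimum of 0.1 TPM or without a library. All 41 already reached 1 TPM in all 3 libraries. The values fixed in this way are among the 183. With the mean over members, the constitutive catalytic against structural beta difference reversed to 0.56. With 2 alternatives chosen after the data were seen, other values moved. With coding transcripts only, the structural beta against alpha difference was -0.01, and the immune shares were 78.2% at beta2 and 86.9% at beta5. With counts per length of the principal transcript, Psmb8 against Psmb10 reversed to -0.08, and the immune shares were 80.0% at beta2 and 82.1% at beta5; the 840-base model of Psmb8-203 against 1628 bases in Psmb8-201 enters this by construction. Leaving out 1 library gave 19 to 36 varying members and 5297 to 7427 varying genes, lowest without replicate 2; a 1.5-fold range on counts scaled by DESeq2 size factors, which changes both the criterion and the scaling, gave 0 members and 4694 genes. Members highest in replicate 1 numbered 9 on TMM-scaled counts, 2 in the second quantification and 2 without immune catalytic and activator members; in replicate 3 they numbered 3 on TMM-scaled counts and 0 without those members, a set also left out only after seeing the data. For the rest the cause was not tested. No paired analysis was possible because the 3 libraries form 1 group. With 3 libraries, p in the exact test could not fall below 0.25.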
